A study of Caenorhabditis elegans with 3 samples.

Results

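Chemoreceptor genes of Caenorhabditis elegans were followed through a map of H3K4me3, trimethylation of lysine 4 on histone H3, made by chromatin immunoprecipitation and sequencing (ChIP-seq). The members were taken by name: every listed gene whose symbol begins with a chemoreceptor prefix (sra, srab, srb, srbc, srd, sre, srg, srh, sri, srj, srm, srn, srr, srsx, srt, sru, srv, srw, srx, srxa, srz or str) and a hyphen. In F11, 8 such genes were assigned to 8 of the 95 peaks, and in F14' 47 genes were assigned to 44 of the 639 peaks. Together they came to 53 genes, of 1308 protein-coding genes that carry such names in the RefSeq table of assembly WBcel235.

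All groups were wild-type whole worms kept at 20 °C on plates with bacterial food. The control was grown on plates with K-medium and no drug. F11 worms had sulfamethoxazole, a sulfonamide antibiotic, in the same medium for 11 generations of 6 days each. F14' worms descended from that line and were raised without the drug; the labels call them the first unexposed progeny and name them F14'. The dose, the generation of the control and the generations between F11 and F14' are not given in the sources used here. Drug and time in culture therefore cannot be told apart. Each group had 1 library, so no value has a replicate check, no p-value was computed, and every interval covers counting error only. Both deposited tables are labelled as set against the same control, whose own values were not analysed here. A false discovery rate is given for F11 only. Whether the peaks of both groups were called in the same way is not known. Differences between them in counts, folds, scores and distances therefore cannot be read as changes.

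Chemoreceptors of the worm are seven-transmembrane, G protein-coupled proteins, most of them made in a few ciliated sensory neurons of the head and tail, where they detect odours, tastes and pheromones. The genes form one of the largest families of the genome, are often arrayed in clusters of relatives on the arms of chromosome V, and are sorted into the superfamilies Sra, Str and Srg and several solo families. H3K4me3 is known as a mark around the starts of transcribed genes. Since whole worms were used, more cells with the mark and more mark per cell cannot be told apart.

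Peaks at chemoreceptor genes were mostly weak, and in F14' most lay at or near the start. Of the 44 F14' member peaks, 35 were classed as promoter peaks (79.5%, exact 95% interval 64.7 to 90.2%), against 384 of all 639 (60.1%, 56.2 to 63.9%). The median score, which is the negative base-10 logarithm of the peak's p multiplied by 10, was 45.4 for member peaks (exact 95% interval of the median 37.8 to 57.9) and 64.1 for all F14' peaks (59.5 to 71.0). Scores under 50 belonged to 27 of the 44; the 17 at 50 or more made up 38.6%, against 61.5% of all F14' peaks. A score of at least 100 was reached by 9 of the 44 (20.5%), against 37.4% of all. The strong exceptions were the peaks of srh-246, str-221 and sre-47, which alone reached a fold of 5.

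In F14', 47 of 1308 protein-coding chemoreceptor genes were assigned a peak, or 3.59% (2.65 to 4.75%), where the share over all protein-coding genes was 2.52% and over those that are not chemoreceptors 2.44% (2.22 to 2.67%). The intervals overlapped at their ends. A further gene that the reference table names str-268 is among the 1308 but is listed under a sequence name, and is not among the 47. Among genes with a peak centred within 1 kb of their start, chemoreceptors stood at 26 of 1308 (1.99%, 1.30 to 2.90%) and the others at 0.959% (0.824 to 1.11%), with 1.03% over all protein-coding genes. Those intervals did not overlap, but several limits were compared without adjustment. The 26 genes had only 24 peaks, and genes that share a peak were counted separately, which makes the interval too narrow. For peaks that cover the start the count was 25 (1.91%, 1.24 to 2.81%), with 0.857% of the others (0.730 to 1.00%) and 0.931% over all. With a fold of at least 2 the count was 34 (2.60%, 1.81 to 3.61%), with 2.01% over all. For scores of at least 50, chemoreceptors stood at 19 (1.45%, 0.877 to 2.26%), below the 1.51% over all protein-coding genes. At a score of at least 100 the order was also turned, with 9 chemoreceptor genes (0.688%, 0.315 to 1.30%) against 0.926% of the others (0.794 to 1.07%) and 0.911% over all, and these intervals overlapped. With both a score of at least 100 and a centre within 1 kb of the start, 3 chemoreceptor genes remained (0.229%, 0.0473 to 0.669%), close to the 0.225% of the others. Of the 24 member peaks centred within 1 kb of a start, 16 had a score under 50 (66.7%, 44.7 to 84.4%), against 106 of 233 over all peaks (45.5%, 39.0 to 52.1%), and these intervals overlapped.

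In F11, 8 of 1308 chemoreceptor genes had a peak (0.612%, 0.264 to 1.20%), against 0.325% of all protein-coding genes and 0.305% of the others (0.231 to 0.395%). The intervals overlapped. Within 3 kb of the start the count was 7 (0.535%, 0.215 to 1.1%), with 0.205% over all protein-coding genes. Within 1 kb it was 3 (srh-292, sra-20 and srh-105; 0.229%, 0.0473 to 0.669%), with 0.05% over all and 0.0375% of the others (0.0151 to 0.0772%). The same 3 peaks covered the start, as did peaks at 0.055% of all protein-coding genes. With a score of at least 50 the count was 3 against a background of 0.18%, and with a fold of at least 2 it was 3 against 0.17%. The intervals of the members and of the other genes overlapped under each of these limits. In the authors' deposited table, the false discovery rate (FDR) was 100% for all 8 chemoreceptor peaks, as it was for 94 of all 95 F11 peaks (98.9%). At a score of at least 100, srj-9 alone was left (0.0765%, 0.00194 to 0.425%), against 0.0901% over all; by peaks this was 1 of 8, where 28.4% of all F11 peaks reached that score.

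**Figure D1:**
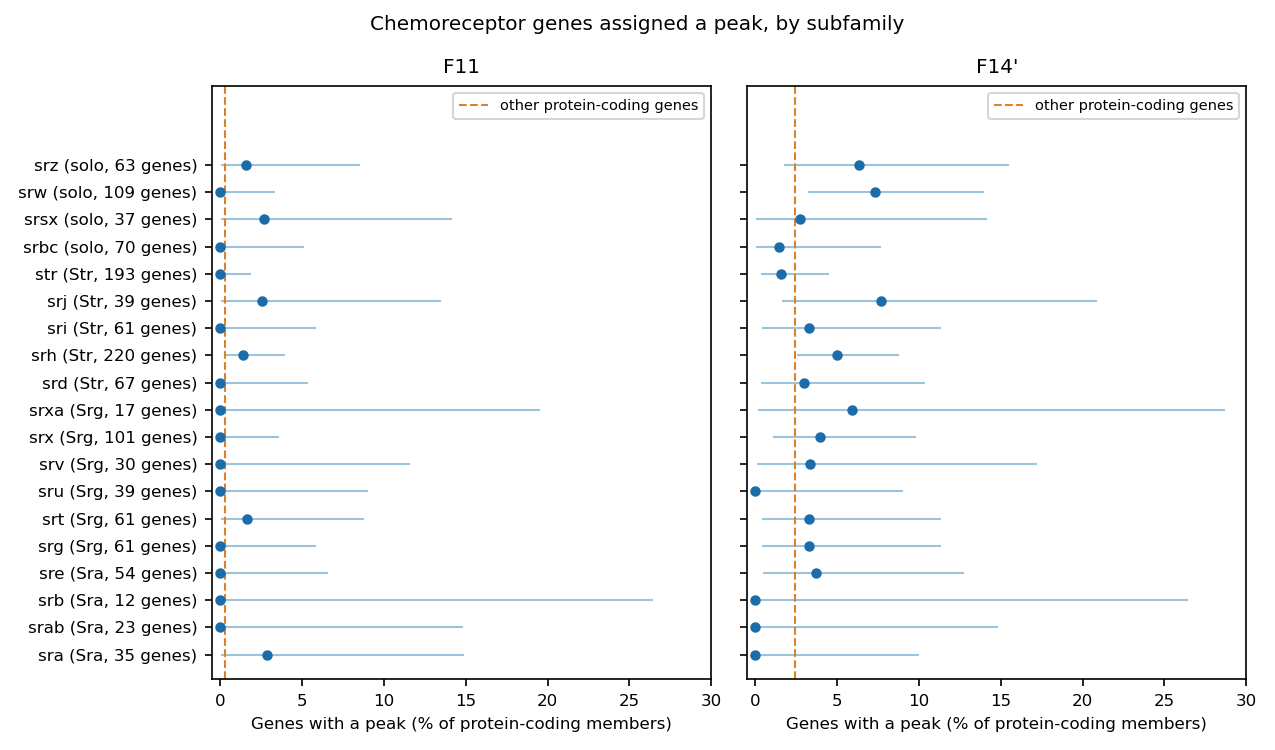
Share of protein-coding chemoreceptor genes with a peak, by subfamily, in F11 (left) and F14' (right). Points are percentages of the subfamily, bars exact 95% binomial intervals for counting error, and the dashed line is the share of the other protein-coding genes (0.305% and 2.44%). The srh and srw points on the right have intervals above the line, that of srh only just. Subfamilies with under 10 protein-coding genes (srm, srn and srr) had no peak and are not drawn.

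By subfamily, 15 of the 22 had at least 1 gene with a peak in F14' and 6 of the 22 in F11. The largest number in F14' came from srh, with 11 of 220 genes (5%, 2.52 to 8.77%), followed by srw with 8 of 109 (7.34%, 3.22 to 13.95%). These 2 intervals lay above the 2.44% of the other protein-coding genes, in 22 subfamilies looked at without adjustment, and 2 of the srw genes share a peak. The lower limit of srh only just cleared it, and was level with the 2.52% over all protein-coding genes. The srh-169 peak was centred nearer to the start of C49G7.3 (494 bp) than to that of srh-169 (905 bp). Of the 63 srz genes 4 had a peak (6.35%, 1.76 to 15.5%), the srx subfamily also had 4 (3.96%), and srj had 3 of 39. The str subfamily, to which the diacetyl receptor gene odr-10 is related, had 3 of 193 (1.55%, 0.322 to 4.47%). No peak was listed for the 35 sra, 23 srab, 12 srb or 39 sru genes in F14', and a count of 0, read as at most 3 genes, allows shares of up to 8.57%, 13.04%, 25% and 7.69%. The exact 95% intervals of these zeros reach 10%, 14.8%, 26.5% and 9.03%. By superfamily the F14' shares were 1.61% for Sra (2 of 124), 3.24% for Srg (10 of 309), 3.58% for Str (21 of 587) and 4.86% for the solo families (14 of 288). Their intervals all overlapped.

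All 8 F11 peaks can be given in full, beginning with the Str superfamily. The peak with the highest fold, 5.25, was assigned to srh-245, a predicted receptor gene (chromosome V, 657753 to 658914, all coordinates ce10), and held 958 tags, or 824 per kb. Its fold ranked 3 among the 95 F11 peaks, yet its score was 38.9. It was the only member of 8 with a fold of at least 5, which 4.21% of all F11 peaks reached. It was classed as upstream, centred 2409 bp before the start of srh-245, and did not touch that gene. Its centre lay 554.5 bp from the start of the neighbouring gene srh-246, to which the F14' table assigned the same region.

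The srh-292 peak (chromosome V, 17802114 to 17803706) had a fold of 2.24, a score of 80.2 and 506 tags, and was centred 168 bp inside the gene. It covered the start and 83.5% of srh-292. The srh-105 peak on chromosome II (508361 to 509588) had a fold of 1.9, a score of 38.1 and 365 tags, and covered the start and 89.2% of the gene. Both receptor genes thus lay largely under their peaks. The srj-9 peak on chromosome V (3434262 to 3441453) was of another kind. It was 7192 bp long, held 4271 tags at a fold of 2.17, and had the highest score of the members, 419. It was intergenic, beginning past the far end of srj-9, and was centred 5602 bp from its start.

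Outside the Str superfamily, 4 F11 peaks were listed, all with folds under 2. The sra-20 peak (chromosome I, 12694612 to 12696769) had a fold of 1.94 and 573 tags, and reached over the start from upstream. The peaks of srsx-1 (fold 1.86, 820 tags), srt-38 (1.85, 679 tags) and srz-44 (1.75, 563 tags), all on chromosome V, touched neither the start nor the body of their genes. They were centred at -1851, -2590 and 2755 bp. Over all 8, 3 reached a fold of 2 (37.5%, 8.52 to 75.5%), where 53.7% of all F11 peaks did.

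**Figure D2:**
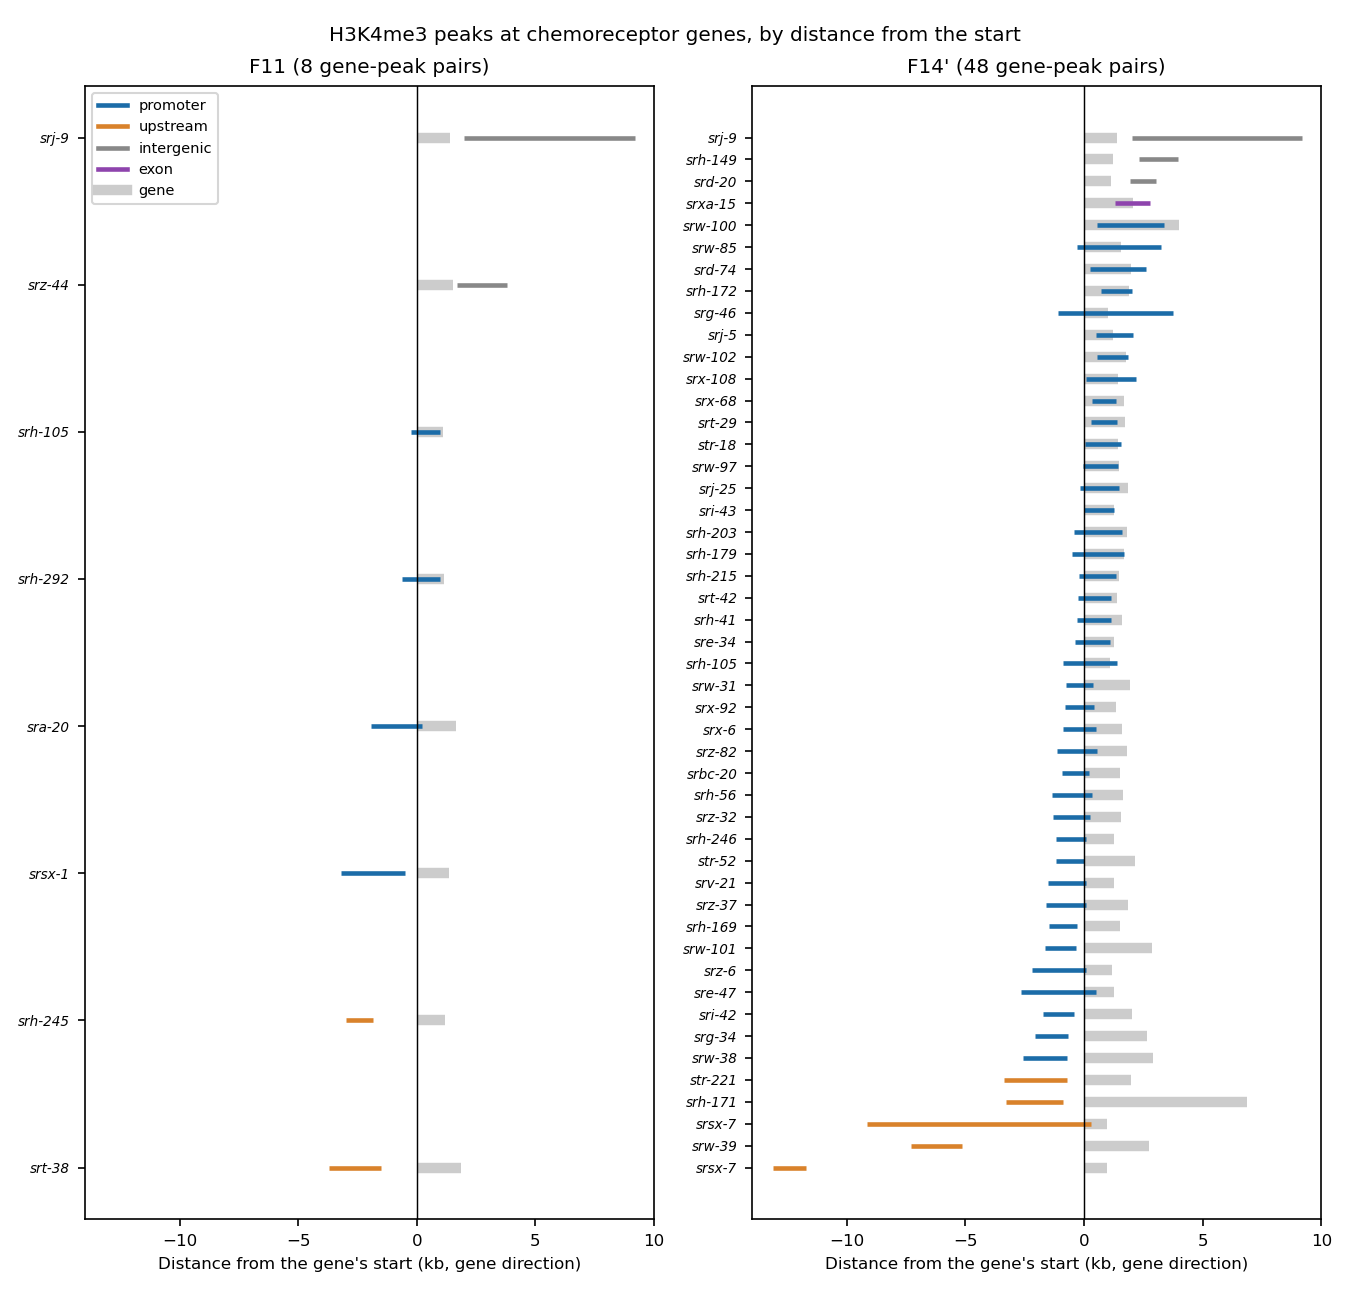
Extent of each chemoreceptor peak around the start of its assigned gene in F11 (left) and F14' (right), in kb along the direction of the gene. Coloured lines are peaks by the authors' class and pale bars are genes; a peak listed with 2 members is drawn for each. Most F14' peaks lie on or beside the start. In F11, 5 of the 8 peaks do not touch their assigned gene, nor do 65 of all 95 F11 peaks. In F14', 11 of the 44 do not, against 271 of all 639. Genes are as each table assigned them, and a region can have another gene in the other table.

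F14' peaks were listed closer to the starts of their assigned genes, but the tables did not always assign a region to the same gene. The region centred at -2409 bp from srh-245 in F11 was listed at -535 bp from srh-246 in F14'. The srg-46 region lay 3342 bp from F32H5.4 in F11 and 1335 bp from srg-46 in F14'. At srj-9 (5602 and 5590 bp) and srh-105 (352 and 242 bp) gene and distance were alike. How much of the contrast comes from assignment or from peak calling was not tested. The median distance from the peak centre to the nearest member start was 872 bp over the 44 peaks, against 1486 bp to the nearest assigned start over all 639 peaks. In F11 the values were 2130 bp for the 8 member peaks and 2423 bp for all 95. In F14', 24 of 44 member peaks covered that start (54.5%, 38.9 to 69.6%), against 35.8% of all peaks (32.1 to 39.7%). At least 50% of the gene lay under 20 of the 44 (45.5%, 30.4 to 61.2%), against 32.4% (28.8 to 36.2%) of all peaks. Median gene lengths were alike, at 1536 bp for members and 1480 bp for all. Peak centres fell upstream of the start in 20 of the 44 and downstream in 24, much as over all 639 peaks (292 and 346). Of the 24 peaks that covered a start, 13 had a score under 50 (54.2%) and 6 a score of at least 100 (25%), against 38.4% and 34.9% of all F14' peaks that covered a start.

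The F14' peaks that stood apart belonged to the Str genes srh-246 and str-221 and the Sra gene sre-47. The srh-246 peak (chromosome V, 657682 to 658947) had a fold of 10.65 and a score of 1759, and held 1128 tags, or 891 per kb. It was centred 535 bp upstream and reached over the start into 7.65% of the gene. The str-221 peak (chromosome V, 1636945 to 1639576) had a fold of 9.36 and 4407 tags, or 1674 per kb. It lay wholly upstream of the gene, centred at -2047 bp. The sre-47 peak on chromosome II (13984066 to 13987220) had the most tags per kb of any member, 2468, with 7788 tags and a fold of 7.24. It covered the start and 40.8% of the gene. The last 2 had a score of 3100, the usual ceiling in the table. Peaks with a fold of at least 5 were 3 of 44 (6.82%, 1.43 to 18.7%) among members and 15.2% of all F14' peaks.

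Below these came peaks with folds from 2.75 to 4.63. The srz-32 promoter peak (chromosome IV, 3434999 to 3436581) had a fold of 4.63, a score of 156 and 576 tags, and the srv-21 peak on the same chromosome a fold of 3.63 with 499 tags. The srv-21 peak is also listed with 3 piRNA genes (small RNAs of the germline), and its centre was nearer to the start of 21ur-12712 than to that of srv-21. Peaks at srw-100 (3.29, 1080 tags) and srw-85 (3.01, 1468 tags) covered 70.0% and 100% of those genes. The divergent pair srbc-20 and str-52 shared 1 peak, which began just upstream of str-52 and reached over the start of srbc-20 into 14.5% of that gene, with a fold of 3.28 and 398 tags. The srt-29 peak had a fold of 2.91 and only 319 tags, and the srg-46 peak (2.75, 1873 tags) spanned 4865 bp and the whole gene.

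Folds between 2.3 and 2.64 were shared by a broad set of subfamilies. In the Srg superfamily, srx-6 had a fold of 2.64, srg-34 of 2.61, srx-92 of 2.34 and srx-68 of 2.3, the last with 291 tags, the fewest of any member. In the Str superfamily, srh-105 had 2.61, srh-169 2.53, srh-149 2.49, srh-41 2.34 and srd-20 2.32. The solo-family genes srz-6 (2.61), srsx-7 (2.61, the shorter of its peaks) and srw-39 (2.32) and the Sra gene sre-34 (2.58) fell in the same range. The places of these peaks varied widely. The srx-6 and srx-92 centres lay 206 and 201 bp upstream of their starts, those of srw-39 and srsx-7 were at -6206 and -12418 bp, and those of srh-149 and srd-20 lay downstream of the genes, at 3125 and 2487 bp.

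In F14' the peak nearest to its start was that of srw-31, centred 188 bp upstream, with a fold of only 1.87 and 319 tags. Other members with centres close to a start were srh-105 (242 bp), srz-82 (-288 bp), srbc-20 (-353 bp), sre-34 (360 bp), srh-41 (425 bp), srt-42 (451 bp) and srh-56 (-518 bp). Their folds ran from 1.78 at srz-82 to 3.28 at srbc-20. The nearest peaks thus included both low and middling folds. Members whose folds lay between 1.9 and 2.3 were srh-179, srd-74, srxa-15, srh-172, str-18, srh-56, srt-42, srj-25, srh-215, srj-9, srw-101 with srw-102, sri-42 with sri-43, and srw-38. The lowest, from 1.68 to 1.87, were srw-31, srj-5, srh-171, srz-37 with srz-82, srw-97, srh-203, srx-108 and the longer of the peaks of srsx-7. The srxa-15 peak was the only member peak classed as exonic (2.27% of the 44), and none was intronic (0%, up to 8.04%). Over all F14' peaks 2.82% were exonic and 3.29% intronic.

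**Figure D3:**
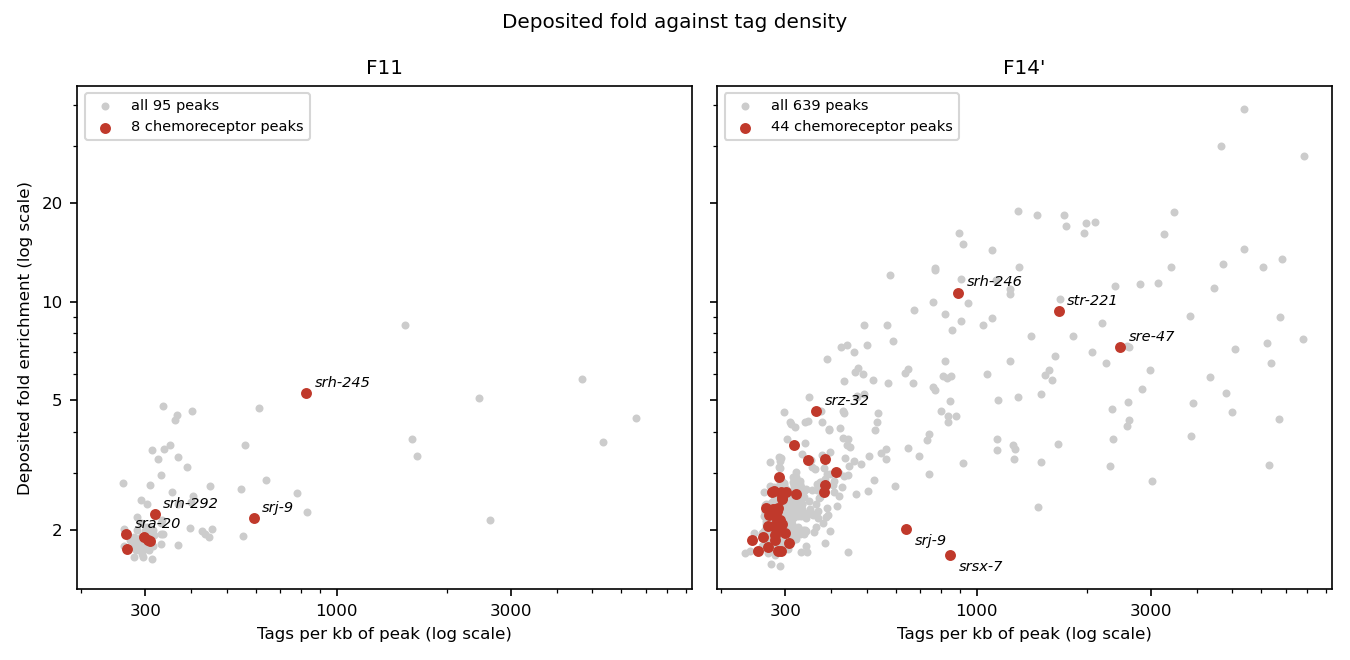
Deposited fold against tags per kb of peak, both on log scales, for F11 (left) and F14' (right). Pale points are all peaks of the table and dark red points the 8 and 44 chemoreceptor peaks; most of the latter sit at the lower left, with srh-246, str-221 and sre-47 high and srj-9 and srsx-7 low for their density in F14'.

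Tag density was low at most members, as it was at most peaks of the table. In F14' it ran from 243 per kb at srj-5 to 2468 at sre-47, with a median of 289 (exact 95% interval 285 to 299), against 301 over all peaks (297 to 307). A density under 350 per kb was found at 34 of the 44 (77.3%, 62.2 to 88.5%), against 68.4% of all F14' peaks (64.6 to 72.0%). A density of 500 was reached by 5, or 11.4%, where 127 of all 639 (19.9%) did. Besides the strong 3, these were the long peaks of srj-9 (642 per kb) and srsx-7 (846 per kb). The median fold of members, 2.31 (2.08 to 2.58), lay next to that of all F14' peaks, 2.3. At a fold of at least 2 the members numbered 33 of 44 (75%, 59.7 to 86.8%), against 78.4% of all. In F11 the median member density was 307 per kb and that of all peaks 314.

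The background behind a peak was computed as the Poisson mean at which its tags have the deposited p, for peaks under the ceiling score. In F14', 18 of 42 member peaks had a background within 1 tag per kb of 235, the median of the other peaks, and so did 213 of the 529 other peaks. In F11 none of the 8 member peaks and none of the 86 others came that close to their median of 251. Tags over this background were a median of 1.21 times in F14' members and 1.18 times in F11 members, with 1.23 and 1.19 over all peaks. The deposited fold need not be taken over the whole peak, so these ratios and the folds are different quantities. At srsx-7 the 9423 bp peak held 7971 tags at a ratio of 1.04 and a fold of 1.68, the lowest ratio of any member. Among the 42 members the highest ratio, 2.67, was that of srh-246.

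Regions with a chemoreceptor peak in either table that overlapped a peak of the other numbered 4. Of the 8 F11 member peaks, 3 had an F14' peak in common with them, counting 1 shared bp as enough (37.5%, 8.52 to 75.5%), where 55.8% of all F11 peaks did. Of the 44 F14' member peaks, 4 overlapped an F11 peak (9.09%, 2.53 to 21.7%), where 8.45% of all F14' peaks did. By symbol, srj-9 and srh-105 were listed in each table. At srh-245 and srh-246 the region was the same under different names, and the srg-46 region was assigned to F32H5.4 in F11. Both tables are labelled as sharing 1 control, so these overlaps cannot be taken as independent of it. Whether the peaks of both were called alike against it is not known.

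The regions differed in which values moved between the tables. At the srh-245 and srh-246 region the tags were 958 in F11 and 1128 in F14', which is 824 and 891 per kb, while the folds were 5.25 and 10.65 and the scores 38.9 and 1759. The computed background amounted to 731 per kb in F11 against 334 in F14'. The tags were thus 1.13 and 2.67 times that background. At srj-9 the tags were 4271 and 4597, the folds 2.17 and 2.02, and the scores 419 and 205. At srg-46 they were 1795 and 1873 tags, with folds of 2.03 and 2.75. At srh-105 the tags were 365 and 624, but the F14' peak was longer, so the densities were 297 and 275 per kb, with folds of 1.9 and 2.61. The ratio of F14' to F11 tags per kb lay between 0.927 and 1.08 at all 4. Without library totals these densities cannot be scaled against each other, and no change between the groups is drawn from them.

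**Figure D4:**
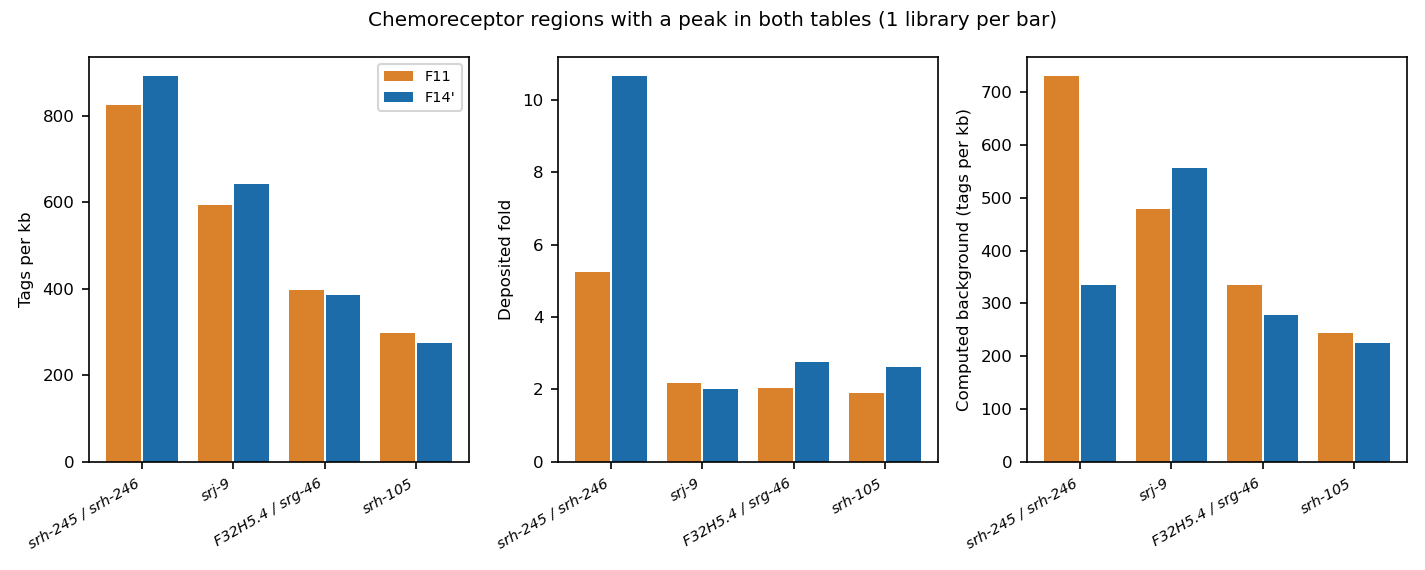
Tags per kb, deposited fold and computed background (tags per kb) at the 4 regions where a chemoreceptor peak of either table overlapped a peak of the other, each bar 1 library. Tag densities are close between F11 and F14', while at srh-245 and srh-246 the fold is 5.25 against 10.65 and the background 731 against 334.

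The 6 F11 genes without an F14' peak were srh-245 by name, srh-292, sra-20, srsx-1, srt-38 and srz-44. For srh-245 the region was present in F14' under srh-246, and for the other 5 no F14' peak overlapped. The authors' tables list only regions that passed the peak caller, so the tags at these 5 regions in F14' are not known. The subfamilies srsx, srt and srz did have other members in F14', while sra had none.

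Chromosome V carried 32 of the 44 F14' member peaks (72.7%, 57.2 to 85.0%) and 6 of the 8 in F11. The share of all chemoreceptor genes of the reference that lie there is 68.3%, or 67.9% of the protein-coding ones, so the interval of the F14' share holds both. On that chromosome 33 of 888 protein-coding chemoreceptor genes had an F14' peak (3.72%, 2.57 to 5.18%), against 2.48% of the other protein-coding genes (2.03 to 3.01%), and the intervals overlapped. Cut into 3 equal parts, chromosome V had peaks at 16 of 351 chemoreceptor genes in its left part (4.56%, 2.63 to 7.30%). The middle had 4 of 208 (1.92%, 0.526 to 4.85%) and the right part 13 of 329 (3.95%, 2.12 to 6.66%). These intervals all overlapped. The other protein-coding genes showed the same order of outer and middle parts, at 2.99%, 1.38% and 3.35%. The 4 members in the middle were srx-6, srx-92, srsx-7 and srg-46.

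Chromosome II held 8 F14' member peaks, namely those of srh-105, srw-97, sri-42 with sri-43, srx-108, sre-34, srz-6, sre-47 and srh-41. Chromosome IV held 3 (srz-32, srz-37 with srz-82, and srv-21) and chromosome III held srd-74. Chromosomes II, IV and III thus had 18.2%, 6.82% and 2.27% of the member peaks, against 18.5%, 20.0% and 14.9% of all F14' peaks. Of the protein-coding chemoreceptor genes, 12.9%, 11.7% and 2.37% lie on them. The 34 and 33 protein-coding chemoreceptor genes on chromosomes I and X had none in F14', which allows shares of up to 8.82% and 9.09% at 3 genes each, with exact 95% upper limits of 10.3% and 10.6%. Of the other protein-coding genes on chromosomes I and X, 2.46% and 1.22% had an F14' peak, which lies below those limits.

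Some members had near neighbours with peaks. In F14', 10 of the 44 peaks lay within 20 kb of another member peak. The gaps were 1353 bp between srh-172 and srh-171, 2567 bp between the peaks of srsx-7, 5147 bp between srj-5 and srh-246, 6015 bp between srw-100 and srw-101, and 10753 bp between srx-6 and srx-92. In 4 further cases 2 members were listed with the same peak (srbc-20 with str-52, srw-101 with srw-102, sri-42 with sri-43, and srz-37 with srz-82). Genes that share a peak share its tags and are not separate measurements. For 8 F14' members the start of another listed gene was closer to the middle of the peak, and in 4 cases that gene was a chemoreceptor.

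Other genes of chemosensory signalling and receptor trafficking were counted from a list of 76, chosen with earlier results of these data known. The list included G proteins, guanylyl cyclases, channels, kinases, phosphodiesterases, an adaptor, cilium genes and transcription factors of sensory neurons. None of the 76 had a peak in F11, where only 0.325% of all protein-coding genes did, so the 0 carries little weight. For F14' no excess can be read from a list chosen in this way, and no interval was computed. There 5 of the 76 had a peak, where 2.52% of all protein-coding genes did. These were egl-30, the Gq alpha subunit gene (fold 2.27, 545 tags), unc-43, which encodes CaMKII (2.68, 618 tags), the phosphodiesterase gene pde-1 (1.91, 447 tags) and ceh-37, a homeobox gene (1.98, 526 tags), all in promoters. The adaptor gene tir-1 had a fold of 6.99 with 972 tags, centred at -6150 bp from its start. The odorant receptor odr-10, the trafficking gene odr-4 and the channel genes tax-2, tax-4, osm-9 and ocr-2 were not listed in either table.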

How the data were processed

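H3K4me3 ChIP-seq of 3 libraries (control, F11, F14') was used through 1 annotated peak table each for F11 and F14'; peaks were called per sample. MACS 1.4.0rc2, Bowtie2 2.1.0 and build ce10 are named in the submitters' processing notes. Per the file headers, the authors deposited for each peak a count of tags, a fold (ratio) over the caller's background, a score (10 times the negative base-10 logarithm of p) and, in F11, an FDR in percent. Totals per library are not given in the sources used here; depth is known only inside peaks (member peaks: 365 to 4271 tags in F11, 291 to 7971 in F14').

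Rows were collapsed to unique intervals. All 61 member rows matched the RefSeq table of WBcel235 by accession or symbol; it served for names, gene order and counts, and no coordinate of it is printed. The 320 chemoreceptor pseudogenes of that table have no transcript accession and left the denominators, except in the share of all chemoreceptor genes on chromosome V. Shares carry exact Clopper-Pearson 95% intervals, medians exact order-statistic intervals. The code was tested on simulated data. Distances run from the peak centre, negative upstream.

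The members and gene lists were chosen with earlier results of these data known. All F11 members are named; in F14' values are given for members in both tables, the 20 highest folds, the 10 nearest to a start and the leading members of subfamilies. Alternatives were score, fold, distance, overlap and assignment limits. Software was scipy 1.17.1, numpy 2.4.6, matplotlib 3.10.9 and pandas 2.3.3 under Python 3.11.15.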

Additional observations from a re-analysis of the deposited data

How the results depend on the processing

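Of 40 alternatives to the main values, 27 stayed within 1.5 times of the count or within the 95% interval and 13 moved. F11 chemoreceptor genes fell from 8 to 3 at a score of at least 50, to 1 at a score of at least 100, to 3 within 1 kb of the start and to 3 at a fold of at least 2. F14' genes fell from 47 to 19, 9 and 26 under the same score and distance limits, and F11 peaks that overlap an F14' peak from 3 to 1 at either score. The median F14' fold of 2.31 became 2.75 and 3.63, and the median tags per kb of 289 became 346 and 411, as the score limit removes weak peaks. Promoter and chromosome V shares stayed within their intervals in every alternative run on them. Leaving out peaks of 5 kb or longer was chosen after seeing the data. No paired analysis was possible because each group has 1 library. Tags outside peaks are not listed, so a gene without a peak has no measured level.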

Other observations

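Receptor-rich neighbourhoods were described by gene order in the reference table, for the 10 protein-coding genes around each gene. The 47 F14' members had a median of 3 chemoreceptor genes among those 10, and all 1308 protein-coding chemoreceptor genes a median of 4. For the 8 F11 members the median was 6. No other chemoreceptor gene was within this window for 6 of the 47 F14' members (12.8%) and for 168 of the 1308 (12.8%). Among the 8 F11 members 1 had none.

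The F14' table lists Y116A8C.40, which the reference table names str-268. It fell outside the rule on symbols. Its promoter peak on chromosome IV (17149758 to 17151048) had 359 tags, a fold of 1.87 and a score of 30.5, among the weakest values of the chemoreceptor peaks.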
